A study of Mus musculus with 6 samples.

Results

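The genes described here are 45 members of the Wnt pathway, chosen by gene symbol: 12 ligands, 15 receptors and co-receptors, 9 secreted inhibitors and 9 intracellular effectors. All 45 were found among the 23443 gene symbols of the dataset. Levels are in FPKM, the fragments counted per kilobase of a transcript relative to all mapped fragments. Of the 45 genes, 33 passed a filter on low values (1 FPKM or more in 2 or more of the 6 libraries), as did 10799 genes in all. The members that passed were 5 ligands, 12 receptors, 7 inhibitors and 9 effectors.

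Wnt proteins are secreted, lipid-modified ligands that bind Frizzled receptors. With the co-receptors Lrp5 and Lrp6 they keep beta-catenin from being degraded, so that it enters the nucleus and acts with transcription factors of the Tcf/Lef family. With Ror and Ryk receptors they act without beta-catenin, on cell shape, polarity and movement. In the developing palate, Wnt5a in the mesenchyme is known for its part in cell movement and growth of the shelves, and beta-catenin signalling for its part in both epithelium and mesenchyme.

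The study measured RNA in sorted cells of embryonic mouse palatal shelves, the outgrowths that form the roof of the mouth. Mutant embryos were Osr2RFP/- and control embryos Osr2RFP/+, so every library came from cells with 1 Osr2RFP allele, and the controls had a wild-type allele in place of the null one. Osr2 is a zinc finger factor that the shelves need in order to grow, and cells were sorted for the red fluorescent protein (RFP) made from that allele. Embryonic day 13.5 (E13.5) had 2 mutant and 2 control libraries and E12.5 had 1 of each genotype, all on a mixed strain background. The labels do not say whether a library came from 1 embryo or a pool, so the p-values reflect how far these libraries differ, which may be technical. RFP marks cells that use the Osr2 promoter, so cells of the shelves that do not use it are not represented.

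Estimated depth was 14100000 to 17970000 fragments per library. Osr2 had 68.5 and 88.4 FPKM in the E13.5 mutants, against 138 and 152 FPKM in the E13.5 controls, and 163 FPKM in the E12.5 mutant, against 215 FPKM in the E12.5 control. All 15 of the palate mesenchyme markers listed had a mean of at least 1 FPKM, and none of 18 oral epithelium markers did, with Fgf8 at 0 in all 6 libraries. The libraries differed in ways other than genotype and age. Xist, which coats an inactive X chromosome, was at 128.7 to 141 FPKM in both E12.5 libraries and in E13.5 mutant replicate 2, and at 0.0194 FPKM or less in the other 3. A number in the sample titles was 2962 at E12.5. At E13.5 it was 3047 in mutant replicate 1 and 3048 in the 3 other libraries. What this number stands for is not given in the labels, and at E12.5 and E13.5 it cannot be told apart from age.

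The upstream sequences of 4 members are shown here, because their levels with age are described later: Dkk1, Wif1 and Tcf7, and Axin2, a widely used reporter gene of beta-catenin activity. Each is the 250 bases before an annotated RefSeq transcription start on GRCm38.p6, written 5′ to 3′ on the gene's strand. They lie at chr19:30549497-30549746 on the minus strand (Dkk1), chr10:121033754-121034003 on the plus strand (Wif1), chr11:52282596-52282845 on the minus strand (Tcf7) and chr11:108920099-108920348 on the plus strand (Axin2). RefSeq gives Tcf7 a further start, and the one nearest to the deposited transcript is shown. Capitals mark any match, on either strand, to a Tcf/Lef site, taken as the letters CTTTG followed by 2 letters that are each A or T.
Dkk1: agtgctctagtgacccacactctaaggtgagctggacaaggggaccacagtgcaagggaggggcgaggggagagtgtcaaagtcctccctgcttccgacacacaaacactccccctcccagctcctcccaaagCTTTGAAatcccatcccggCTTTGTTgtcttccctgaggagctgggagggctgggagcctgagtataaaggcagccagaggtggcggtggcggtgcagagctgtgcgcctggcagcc
Wif1: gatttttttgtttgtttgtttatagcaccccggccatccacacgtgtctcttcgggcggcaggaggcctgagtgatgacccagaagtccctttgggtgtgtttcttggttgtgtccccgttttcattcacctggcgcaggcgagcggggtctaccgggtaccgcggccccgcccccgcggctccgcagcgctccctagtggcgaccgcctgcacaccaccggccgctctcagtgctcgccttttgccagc
Tcf7: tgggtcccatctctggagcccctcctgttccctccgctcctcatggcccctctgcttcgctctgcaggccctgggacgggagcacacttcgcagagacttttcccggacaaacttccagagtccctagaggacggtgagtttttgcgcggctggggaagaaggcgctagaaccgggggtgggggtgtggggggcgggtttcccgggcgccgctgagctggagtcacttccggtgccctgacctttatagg
Axin2: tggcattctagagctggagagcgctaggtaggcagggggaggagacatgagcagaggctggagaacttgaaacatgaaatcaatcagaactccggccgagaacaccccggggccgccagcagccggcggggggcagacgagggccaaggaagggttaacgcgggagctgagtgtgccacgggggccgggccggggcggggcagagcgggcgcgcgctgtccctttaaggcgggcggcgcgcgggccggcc
The Dkk1 sequence holds CTTTGAA, which begins 117 bases before the start, and CTTTGTT, which begins 98 bases before it. No match lies in the other 3 sequences. Of the 45 members, 33 were matched by symbol in the RefSeq table used, a set other than the 33 that were tested. Over windows of 300 bases around the start (250 before and 50 after), 6 of these 33 had a match (18.18%), and 5121 of 27025 genes in the table did (18.95%). The 6 were Dkk1, Wnt5b, Wnt11, Fzd7, Lef1 and Tcf7l2. These matches describe letters and not binding.

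Wnt5a was the main Wnt ligand of these cells. It made up 62.6% to 71.65% of the summed FPKM of the 12 ligands in each library, and the sum itself was 14.9 to 23.2 FPKM. Wnt5a (chromosome 14, 28505473 to 28525515 on GRCm38, as are all further positions) acts mostly through Ror receptors. It had 13.2 and 15.4 FPKM in the E13.5 mutants, against 15.4 and 15.4 FPKM in the E13.5 controls. The E12.5 mutant had 14.5 FPKM and the E12.5 control 9.31 FPKM, which was the lowest of the 6 libraries. The 4 other ligands that passed the filter stood near 1 to 2 FPKM. Wnt2b, a canonical ligand, ranged from 1.33 to 2.23 FPKM over the 6 libraries, Wnt5b from 0.900 to 1.72, Wnt9a from 0.995 to 1.38 and Wnt11 from 0.797 to 1.52. Of the 7 ligands under the filter, Wnt9b was listed at 0 in every library, and Wnt2, Wnt4, Wnt6, Wnt10a and Wnt10b did not exceed 0.577 FPKM. Wnt16 reached 1.37 FPKM in 1 library.

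Among receptors, Fzd2 was the highest and took 28.8% to 36.0% of the summed receptor FPKM, a sum of 165 to 218.7 FPKM. Fzd2 had 52.7 and 64.5 FPKM in the E13.5 mutants, against 66.7 and 60.7 FPKM in the E13.5 controls, and 62.9 FPKM in the E12.5 mutant, against 49.2 FPKM in the E12.5 control. The other receptors above 10 FPKM in every library were Fzd1, Fzd7, Lrp5, Lrp6 and Ror2. Fzd7 ranged from 18.7 to 27.6 FPKM, Lrp6 from 15.6 to 25.3 and Ror2, a receptor of Wnt5a, from 10.8 to 14.7. Fzd3, Fzd4, Fzd8, Fzd10, Ror1 and Ryk lay between 1.47 and 10.03 FPKM. Fzd5, Fzd6 and Fzd9 did not pass the filter, with at most 0.553 FPKM.

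Secreted inhibitors exceeded the other roles in summed FPKM in every library, and most of that sum was Sfrp2. Sfrp2 (chromosome 3, 83766321 to 83774314) encodes a secreted protein with a Frizzled-like domain that binds Wnts. It ranked between 16 and 71 of all gene symbols by FPKM in each library. Sfrp1 and Frzb, which belong to the same family, followed with 44.96 to 65.9 FPKM and 36.2 to 96.7 FPKM. Dkk3 lay between 7.32 and 13.96 FPKM, and Dkk1, Dkk2 and Wif1 reached at most 6.19 FPKM. Sfrp4 and Sfrp5 did not pass the filter.

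Ctnnb1, which encodes beta-catenin, took 48.3% to 60.5% of the summed FPKM of the effectors. It had 133 and 128 FPKM in the E13.5 mutants, against 118 and 114 FPKM in the E13.5 controls, and 186 FPKM in the E12.5 mutant, against 136 FPKM in the E12.5 control. Of the Tcf/Lef genes, Tcf7l1, mostly a repressor, was the highest at 42.9 to 52.0 FPKM. Tcf7l2 had 20.4 to 28.9 FPKM, Lef1 5.74 to 15.03 and Tcf7 1.85 to 6.46. Tcf7l1 stood above Tcf7l2, and Tcf7l2 above both Lef1 and Tcf7, in all 6 libraries. Axin1, a scaffold of the complex that degrades beta-catenin, had 4.49 to 5.27 FPKM, and its homologue Axin2 had 10.8 to 15.8 FPKM. The feedback inhibitors Nkd1 and Nkd2, which bind Dishevelled, had 1.69 to 4.60 and 7.27 to 11.7 FPKM.

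**Figure D1:**
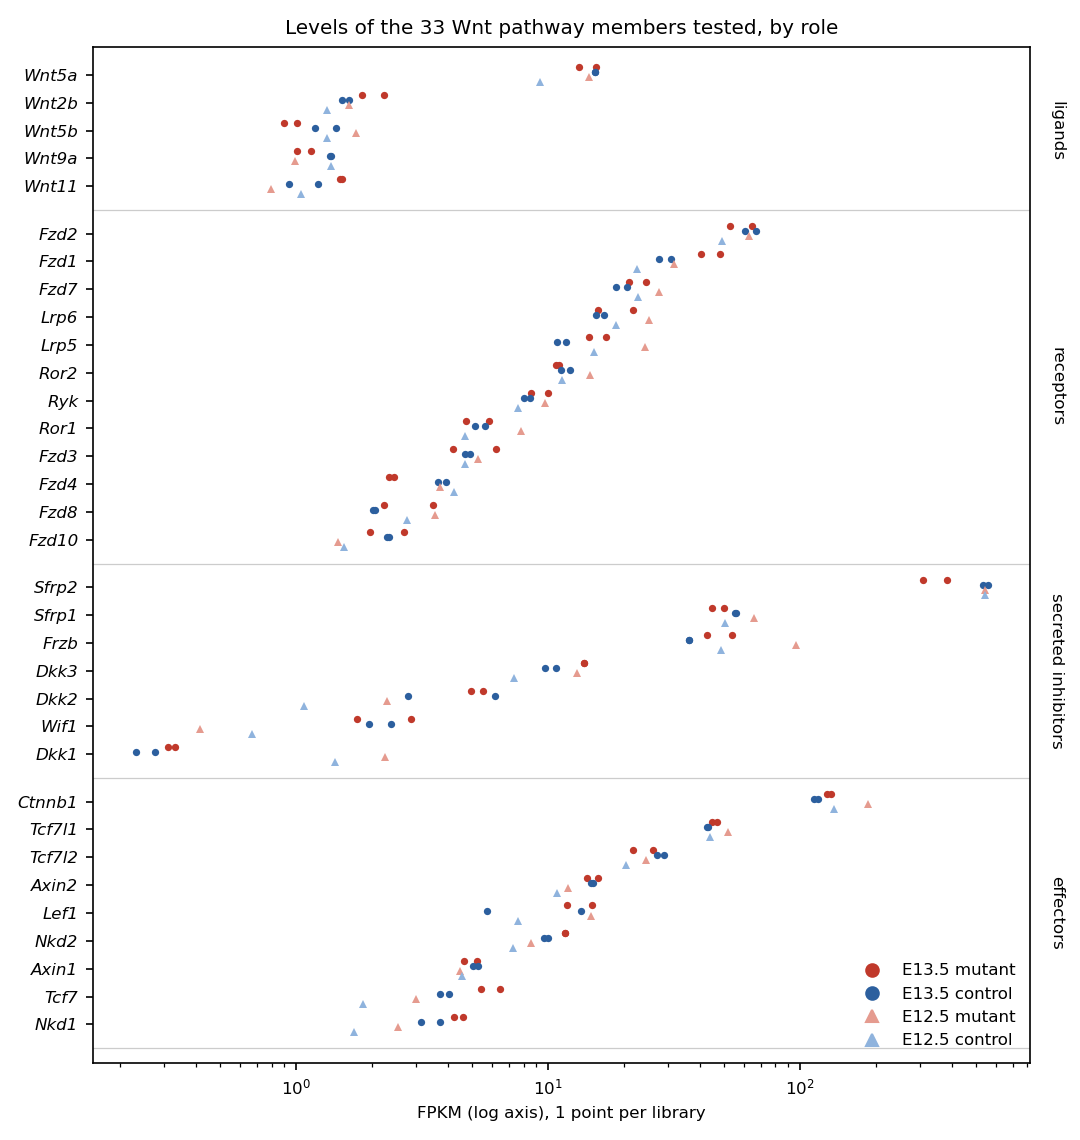
FPKM of the 33 members that passed the filter, by role, on a log axis; each point is 1 library, circles for E13.5 and triangles for E12.5, red for mutants and blue for controls. Sfrp2 stands highest, at 307 to 556 FPKM, and Ctnnb1, Fzd2 and Wnt5a lead the effectors, receptors and ligands.

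The comparison of mutants and controls at E13.5 asks which members differ when Osr2 function is lost. None of the 33 members tested passed the threshold of 0.05 in either direction (limma, Benjamini-Hochberg adjusted over all 10799 genes), while 1.29% of all genes passed, 0.852% higher and 0.435% lower in mutants. At an unadjusted p under 0.05 stood 8 of the 33, and 9.24% of all genes. Both mutant libraries lay above both control libraries for 15 members, and for 24.8% of all genes tested. They lay below for 7 members, and for 13.2% of all genes, and overlapped for 11. The median difference was 0.08 on the log2(FPKM + 1) scale over the members and 0.04 over all genes tested.

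Sfrp2 had the largest difference of the 33. It had 307 and 385 FPKM in the E13.5 mutants, against 531 and 556 FPKM in the E13.5 controls. The groups did not overlap. The log2 difference was -0.66 (SE 0.18, 95% interval -1.06 to -0.26, limma adjusted p = 0.158). Sfrp2 made up 73.4% and 75.4% of the summed inhibitor FPKM in the mutants, against 83.2% and 83.25% in the controls. Without mutant replicate 2, the mutant with Xist, the difference was -0.82 and passed the threshold (limma adjusted p = 0.0192). Without mutant replicate 1, which leaves the 3 libraries with the title number 3048, it was -0.50 and did not pass (limma adjusted p = 0.0797). In such fits the lone mutant or control library is assumed to vary like the other groups. At E12.5 Sfrp2 had 544 FPKM in the mutant and 542 FPKM in the control, which placed it 0.18 below the median gene of that pair (-0.18 on the log2 scale). The genotype difference at E13.5 minus that at E12.5 was -0.66 (95% interval -1.35 to 0.02, limma adjusted p = 0.833).

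Dkk3 and Frzb lay on the opposite side. Dkk3, a member of the Dickkopf family whose effect on Wnt signals varies between settings, had 13.96 and 13.9 FPKM in the mutants, against 9.74 and 10.8 FPKM in the controls (log2 difference 0.41, limma adjusted p = 0.236). Frzb, also called Sfrp3 and known from cartilage, had 42.8 and 53.7 FPKM in the mutants, against 36.2 and 36.4 FPKM in the controls (log2 difference 0.39, limma adjusted p = 0.429). The Frzb difference was 0.55 without mutant replicate 1 (limma adjusted p = 0.064) and 0.23 without mutant replicate 2 (limma adjusted p = 0.578). For both genes the groups did not overlap. Sfrp1 had 44.96 and 49.8 FPKM in the mutants, against 56.0 and 55.4 FPKM in the controls, with a log2 difference of -0.23 (95% interval -0.54 to 0.07). The sum over the 9 inhibitors was 418 and 510 FPKM in the mutants, against 638 and 668 FPKM in the controls, and Sfrp2 was its largest part in each library. Sfrp4, under the filter, had 0.744 and 0.868 FPKM in the mutants, against 0.326 and 0.327 FPKM in the controls.

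Fzd1 had the largest positive difference. This receptor of canonical Wnts (chromosome 5, 4753839 to 4758216) had 40.6 and 48.2 FPKM in the mutants, against 30.7 and 27.5 FPKM in the controls. Both mutants lay above both controls, with a log2 difference of 0.59 (SE 0.14, 95% interval 0.26 to 0.91, limma adjusted p = 0.115). Without mutant replicate 1 it was 0.71, and without mutant replicate 2 it was 0.47. The first of these sets the mutant with Xist against controls without it, so genotype cannot be told apart from that difference there. Fzd4, a receptor known from vessels, had 2.34 and 2.46 FPKM in the mutants, against 3.95 and 3.66 FPKM in the controls, again without overlap (log2 difference -0.50, limma adjusted p = 0.114). Lrp5 had 14.5 and 17.1 FPKM in the mutants, against 11.8 and 10.9 FPKM in the controls (log2 difference 0.44, limma adjusted p = 0.242). Its partner Lrp6 overlapped between the groups, with 15.9 and 21.7 FPKM in the mutants, against 16.7 and 15.6 FPKM in the controls. For Fzd2, the highest receptor, the 95% interval of the log2 difference was -0.46 to 0.22.

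Tcf7 (chromosome 11, 52252604 to 52282571), a Tcf/Lef factor that is also a common target of the pathway, had 6.46 and 5.40 FPKM in the mutants, against 3.72 and 4.05 FPKM in the controls. The groups did not overlap, and the log2 difference was 0.50 (95% interval 0.21 to 0.80, limma adjusted p = 0.147). Nkd1 had 4.60 and 4.24 FPKM in the mutants, against 3.71 and 3.14 FPKM in the controls (log2 difference 0.29, limma adjusted p = 0.534). Axin2, by contrast, had 14.3 and 15.8 FPKM in the mutants, against 15.1 and 14.8 FPKM in the controls. Its log2 difference was 0.01, with a 95% interval of -0.27 to 0.29. Lef1 had 11.9 and 15.03 FPKM in the mutants, against 5.74 and 13.6 FPKM in the controls, so that the controls differed more from each other than the group means did. Its log2 difference was 0.54 (limma adjusted p = 0.686). It was 1.09 without control replicate 2 (limma adjusted p = 0.0244) and -0.02 without control replicate 1. For Ctnnb1 both mutants lay above both controls, with a log2 difference of 0.17 (95% interval -0.15 to 0.49).

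None of the 5 ligands was among the 8 members at an unadjusted p under 0.05. Wnt5a had a log2 difference of -0.10 (95% interval -0.39 to 0.19). Wnt2b had 1.83 and 2.23 FPKM in the mutants, against 1.53 and 1.62 FPKM in the controls, and Wnt11 1.52 and 1.49 FPKM in the mutants, against 1.22 and 0.940 FPKM in the controls. Wnt5b had 1.01 and 0.900 FPKM in the mutants, against 1.44 and 1.19 FPKM in the controls. Wnt9a had 1.14 and 1.01 FPKM in the mutants, against 1.38 and 1.36 FPKM in the controls. Apart from Wnt5a, the ligands tested did not overlap between the groups, and their 95% intervals all included 0. Over all genes tested, both mutants lay above both controls for 24.8% and below for 13.2%. Wnt16, under the filter, had 0.517 and 0.377 FPKM in the mutants, against 1.37 and 0.803 FPKM in the controls.

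Wnt5a is listed with a shorter transcript of 3731 bases and a longer one of 4354 bases that begins farther upstream. The shorter one took 56.5% and 31.7% of Wnt5a FPKM in the E13.5 mutants, against 20.9% and 19.6% in the E13.5 controls, and 70.3% in the E12.5 mutant, against 43.75% in the E12.5 control. The share was higher in the mutant library than in the control libraries of the same age in each case, and the mutants at E13.5 differed more from each other than the controls did. Cufflinks divides fragments between transcripts that share most of their sequence, so this split is an estimate, and no test was run on it.

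**Figure D2:**
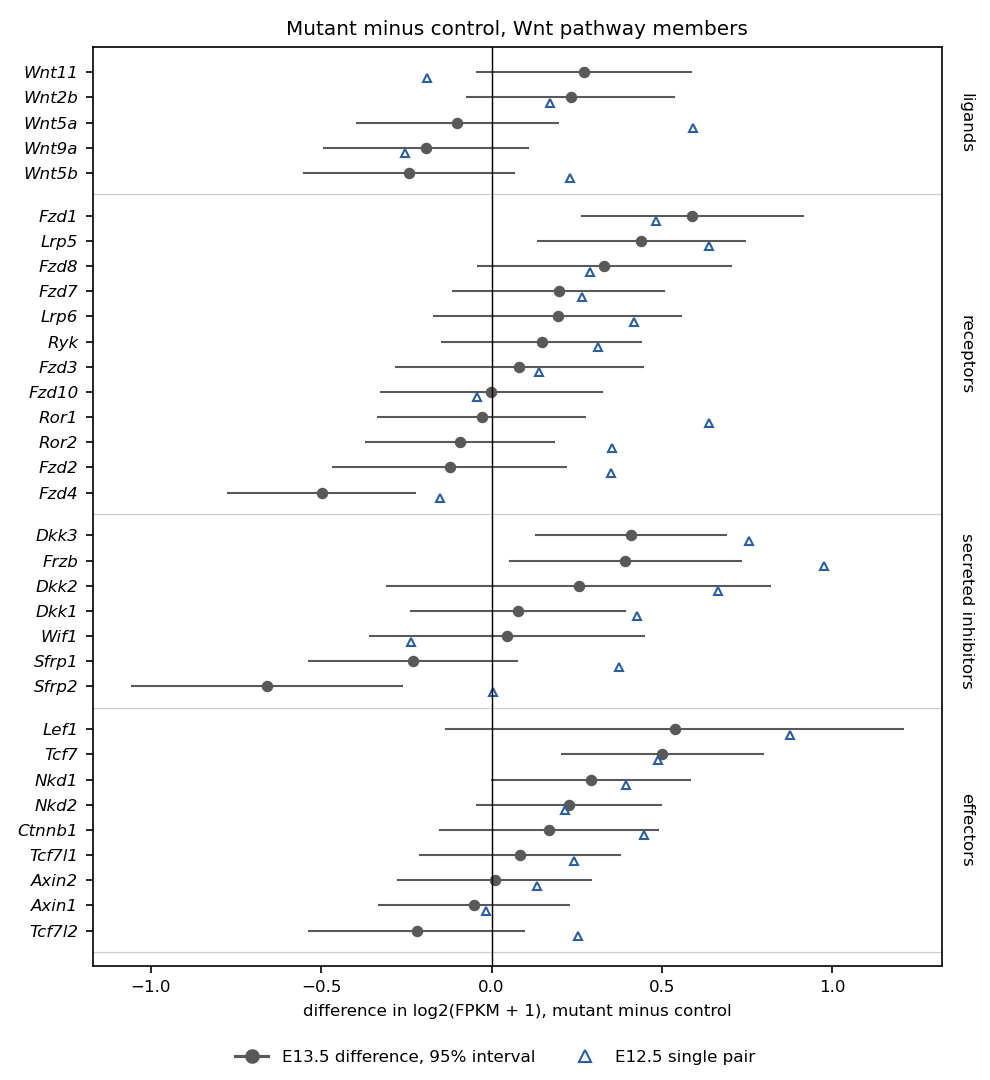
Difference between mutants and controls on the log2(FPKM + 1) scale for the 33 members tested, by role, with the E13.5 estimate and its 95% interval and the E12.5 difference of 1 mutant and 1 control library. None passed the threshold at E13.5, where Sfrp2 was lowest at -0.66 and Fzd1 highest at 0.59.

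Markers of other cell types also differed between the genotypes in these libraries. The summed FPKM of 8 osteoblast markers, 5 of them with a mean of at least 1 FPKM, was 330 and 327 in the E13.5 mutants, against 195 and 202 in the E13.5 controls, and 157 in the E12.5 mutant, against 99.4 in the E12.5 control. No marker of that list was at 0 in all libraries. Col1a1, which is also on the list of palate mesenchyme markers, supplied 202 and 190 FPKM in the E13.5 mutants, against 154 and 154 FPKM in the E13.5 controls, and 88.4 FPKM in the E12.5 mutant, against 78.2 FPKM in the E12.5 control. Without it the sum was 129 and 137 in the E13.5 mutants, against 41.5 and 47.4 in the E13.5 controls, and 68.8 in the E12.5 mutant, against 21.2 in the E12.5 control. The sum of 12 neuron and glia markers was 80.5 and 91.5 in the E13.5 mutants, against 55.3 and 51.2 in the E13.5 controls, and 44.8 in the E12.5 mutant, against 34.1 in the E12.5 control. Most of it was Gap43, Nefl and Nefm, and the other 9 had means under 1 FPKM. Red cell markers summed to 471 and 263 FPKM in the E13.5 mutants, against 592 and 499.7 FPKM in the E13.5 controls, and to 741 FPKM in the E12.5 mutant, against 695 FPKM in the E12.5 control. Endothelial, muscle and leukocyte markers summed to at most 1.57, 2.46 and 5.02 FPKM in any library. The part of these cells in the Sfrp2, Fzd1, Frzb and Tcf7 values was not tested, and in sorted bulk RNA fewer cells of a type and less RNA per cell cannot be told apart.

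At E12.5, with 1 library per group, the differences have no replicate check. None of the 33 members reached a log2 difference of 1 at 5 FPKM or more in the higher of the pair, against 0.673% of 6092 genes higher and 0.263% lower in the mutant. The 6092 genes are only those at 5 FPKM or more in the higher of the pair. The 33 also include members under that level, such as Wnt2b, Dkk1, Wif1 and Tcf7, which could not pass. The E12.5 mutant library was shifted upwards as a whole, with a median log2 difference of 0.18 over all genes tested, and of -0.06, -0.0076 and 0.0058 under 3 other scalings. Over the members the median was 0.31, and 23 of the 33 lay above the median gene. Under the other scalings 24 did.

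Frzb was the farthest out at E12.5, with 96.7 FPKM in the mutant, against 48.7 FPKM in the control, a log2 difference of 0.97, or 0.79 above the median gene. Lef1 had 14.8 FPKM in the mutant and 7.58 FPKM in the control, 0.69 above the median gene. Dkk3 had 13.1 FPKM in the mutant and 7.32 FPKM in the control, 0.57 above the median gene. Of the 23 members above the median gene at E12.5, 16 had a positive difference at E13.5 and 7 a negative one. Of the other 10, 5 had a positive and 5 a negative difference at E13.5. The same counts over all genes were not taken, and the median E13.5 difference over all genes tested was itself positive, at 0.04. The counts therefore do not show whether the members agree between the ages more than other genes do. Wnt5a and Ror1, a receptor for Wnt5a, were also above the median gene at E12.5, by 0.41 and 0.45. Ror1 had 7.82 FPKM in the E12.5 mutant, against 4.67 FPKM in the E12.5 control.

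Whether the genotype difference itself differed between the ages was tested as the interaction of genotype and age. None of the 33 members passed (limma), 3 stood at an unadjusted p under 0.05, and 0.0370% of all genes passed, with 5.81% at an unadjusted p under 0.05. The 3 were Wnt5a, with a difference at E13.5 minus that at E12.5 of -0.69 (95% interval -1.20 to -0.18, limma adjusted p = 0.722), Ror1, with -0.67 (limma adjusted p = 0.774), and Sfrp1, with -0.60 (limma adjusted p = 0.833). The median interaction over all genes was -0.13, and 0.10, 0.0038 and -0.002 under the 3 other scalings. The 3 values given are not corrected for that shift.

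Across both ages together, from 3 mutant and 3 control libraries with age in the fit, Tcf7 was the only member of the 33 to pass the threshold, against 1.44% of all genes, 1.08% higher and 0.361% lower. Tcf7 had 3.00 FPKM in the E12.5 mutant, against 1.85 FPKM in the E12.5 control, in addition to the E13.5 values given earlier. Its log2 difference was 0.50 (SE 0.10, limma adjusted p = 0.0483), and the mutant stood above the control at each age. The call was close to the threshold. It was lost in 14 of 16 alternatives, over which the adjusted p ranged from 0.0378 to 0.334, and of the 6 fits without 1 library it held only in the one without E13.5 mutant replicate 2 (limma adjusted p = 0.0381). Without E13.5 control replicate 2, Dkk2 (0.69, limma adjusted p = 0.00953) and Lef1 (0.9999, limma adjusted p = 0.00144) passed in place of Tcf7. These values share the E13.5 libraries with the E13.5 comparison. The fits without an E12.5 library give the E13.5 difference itself, so they repeat that comparison. The number of all genes that passed was 117 higher and 39 lower, and 78 and 74, 61 and 55, and 64 and 52 under the other scalings.

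Age separated the members more than genotype did in number of calls. The same held over all genes, of which 16.7% passed with age and 1.29% with genotype at E13.5. The age fit used all 6 libraries and the genotype comparison rests on the 4 at E13.5, so these numbers are not on equal terms. Age also went with the title number, and Xist was high in both E12.5 libraries but at E13.5 only in mutant replicate 2. Between E13.5 and E12.5, with genotype in the fit, 8 of the 33 members were higher at E13.5 and 3 were lower (limma, adjusted p under 0.05), against 7.45% of all genes higher and 9.26% lower. Of the 11, 9 had libraries at 1 FPKM or more at both ages, 7 of them higher and 2 lower. The other 2, Dkk1 and Wif1, passed the filter only through the age at which they were high, so their values describe a difference that the filter favoured. At an unadjusted p under 0.05 stood 14 of the 33, and 33.2% of all genes. All 4 E13.5 libraries lay above both E12.5 libraries for 8 members, and for 13.6% of all genes. They lay below for 2 members, and for 22.9% of all genes. Over all genes, 804 were higher and 1000 lower, and 1032 and 714, 1126 and 754, and 1123 and 755 under the other scalings. The members gave 8 higher and 3 lower, 9 and 3, and 9 and 3 under those scalings.

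Dkk1 and Wif1, both secreted inhibitors, took opposite courses. Dkk1 (chromosome 19, 30545885 to 30549496), which binds Lrp5 and Lrp6 and blocks canonical Wnt signals, had 0.310 and 0.332 FPKM in the E13.5 mutants and 0.231 and 0.275 FPKM in the E13.5 controls, against 2.26 FPKM in the E12.5 mutant and 1.42 FPKM in the E12.5 control. Every E13.5 value lay well under both E12.5 values, in both genotypes. Its log2 difference on the log2(FPKM + 1) scale was -1.13 (SE 0.13, limma adjusted p = 0.00092), which understates the change of a gene this low. Only its E12.5 libraries reached the filter's 1 FPKM. It was not tested under the filter at a mean of 1 FPKM, and with no filter its limma adjusted p was 0.0663. Wif1, which binds Wnts outside the cell, had 2.86 and 1.75 FPKM in the E13.5 mutants and 1.94 and 2.39 FPKM in the E13.5 controls, against 0.417 FPKM in the E12.5 mutant and 0.669 FPKM in the E12.5 control (log2 difference 1.06, SE 0.16, limma adjusted p = 0.00289). Only its E13.5 libraries reached 1 FPKM. Its limma adjusted p was 0.00493 with a filter at a mean of 1 FPKM, 0.129 with no filter and 0.0505 in controls alone. Dkk2, a further Lrp5 and Lrp6 binder, had 5.51 and 4.96 FPKM in the E13.5 mutants and 2.79 and 6.19 FPKM in the E13.5 controls, against 2.29 FPKM in the E12.5 mutant and 1.08 FPKM in the E12.5 control (log2 difference 1.12, SE 0.22, limma adjusted p = 0.00959). For Wif1 and Dkk2 all E13.5 values lay above both E12.5 values.

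Frzb was lower at E13.5, with a log2 difference of -0.71 (SE 0.16, limma adjusted p = 0.0177), although E13.5 mutant replicate 2, at 53.7 FPKM, exceeded the E12.5 control, at 48.7 FPKM. Without the E12.5 mutant the age difference rests on the controls alone. For Frzb it was then -0.42 and did not pass. Sfrp1 and Sfrp2 did not pass (log2 differences -0.17 and -0.33, 95% intervals -0.51 to 0.17 and -0.77 to 0.12). Dkk3 did not pass either (log2 difference 0.26, limma adjusted p = 0.15), and it passed under the upper quartile and median ratio scalings (limma adjusted p = 0.0477 and 0.0494).

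Of the 9 effectors, 4 passed the threshold as higher at E13.5, against 7.45% of all genes. Tcf7 was higher at E13.5 by 0.78 (SE 0.11, limma adjusted p = 0.00208), and Nkd1 by 0.66 (SE 0.11, limma adjusted p = 0.00408). Nkd1 (chromosome 8, 88521344 to 88594887) had 2.54 FPKM in the E12.5 mutant and 1.69 FPKM in the E12.5 control, all 4 E13.5 values given earlier being higher. Nkd2 had 11.7 and 11.7 FPKM in the E13.5 mutants and 9.66 and 10.0 FPKM in the E13.5 controls, against 8.60 FPKM in the E12.5 mutant and 7.27 FPKM in the E12.5 control (log2 difference 0.40, limma adjusted p = 0.0251). Axin2 (chromosome 11, 108920349 to 108950781) had 11.98 FPKM in the E12.5 mutant and 10.8 FPKM in the E12.5 control, both under the lowest E13.5 value of 14.3 FPKM (log2 difference 0.37, limma adjusted p = 0.0426). Ctnnb1 had a log2 difference of -0.37 (limma adjusted p = 0.0922). Lef1, Tcf7l1, Tcf7l2 and Axin1 did not pass.

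Among receptors, Fzd1 (log2 difference 0.41, limma adjusted p = 0.0488) and Fzd10 (0.40, limma adjusted p = 0.0479) were higher at E13.5, and Lrp5 was lower (-0.49, limma adjusted p = 0.0213). Fzd10 had 1.97 and 2.68 FPKM in the E13.5 mutants and 2.33 and 2.29 FPKM in the E13.5 controls, against 1.47 FPKM in the E12.5 mutant and 1.55 FPKM in the E12.5 control, without overlap of the ages. For Fzd1 the ages overlapped: the E12.5 mutant, at 31.8 FPKM, exceeded both E13.5 controls, and the E12.5 control had 22.5 FPKM. Lrp5 had 24.2 FPKM in the E12.5 mutant and 15.2 FPKM in the E12.5 control. Its E13.5 mutant replicate 2, at 17.1 FPKM, exceeded that control. None of the 5 ligands tested passed with age. Wnt5a had a log2 difference of 0.32 (95% interval -0.03 to 0.67, limma adjusted p = 0.178), and 0.91 when its highest transcript alone was used (limma adjusted p = 0.0431). In controls alone its difference was 0.67 (limma adjusted p = 0.051), and in mutants alone -0.02 (limma adjusted p = 0.943).

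These age calls rest on 2 E12.5 libraries. Tcf7 passed in all 6 fits that left out 1 library, and Nkd1, Dkk2 and Frzb in 5. Dkk1 and Wif1 also passed in all 6, which kept the filter of the full set of libraries and so the choice described earlier. Lrp5 passed in 3, Nkd2 in 2, and Fzd1, Fzd10 and Axin2 in 1. The number of members that passed was 5 without the E12.5 mutant, 4 without the E12.5 control, 11 without E13.5 mutant replicate 1, 8 without mutant replicate 2, 7 without control replicate 1 and 6 without control replicate 2. With no filter on low values none of the members passed, and 18 stood at an unadjusted p under 0.05. With a filter at a mean of 5 FPKM, which removes Dkk1, Dkk2, Wif1, Tcf7, Nkd1 and Fzd10, 4 passed. In controls alone, 4 members passed (Dkk1, Dkk2, Tcf7 and Nkd1), against 4.23% of all genes. The limit that the filter set for Dkk1 holds in controls alone too. The age differences in controls alone are those of the fit without the E12.5 mutant, so these settings are not separate checks. In the pair of mutants with Xist, E13.5 mutant replicate 2 minus the E12.5 mutant, the 11 members had the same directions. Both libraries were also in the fit that called the 11, so these directions are no separate check. The share of all genes that kept their direction was not computed. No test was run on this pair, which was added after the data were seen. Dkk1 was -1.29 there, Wif1 0.96 and Tcf7 0.68. Osteoblast markers summed to 195 to 330 FPKM at E13.5 and 99.4 to 157 FPKM at E12.5, and their part in the age values was not tested.

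**Figure D3:**
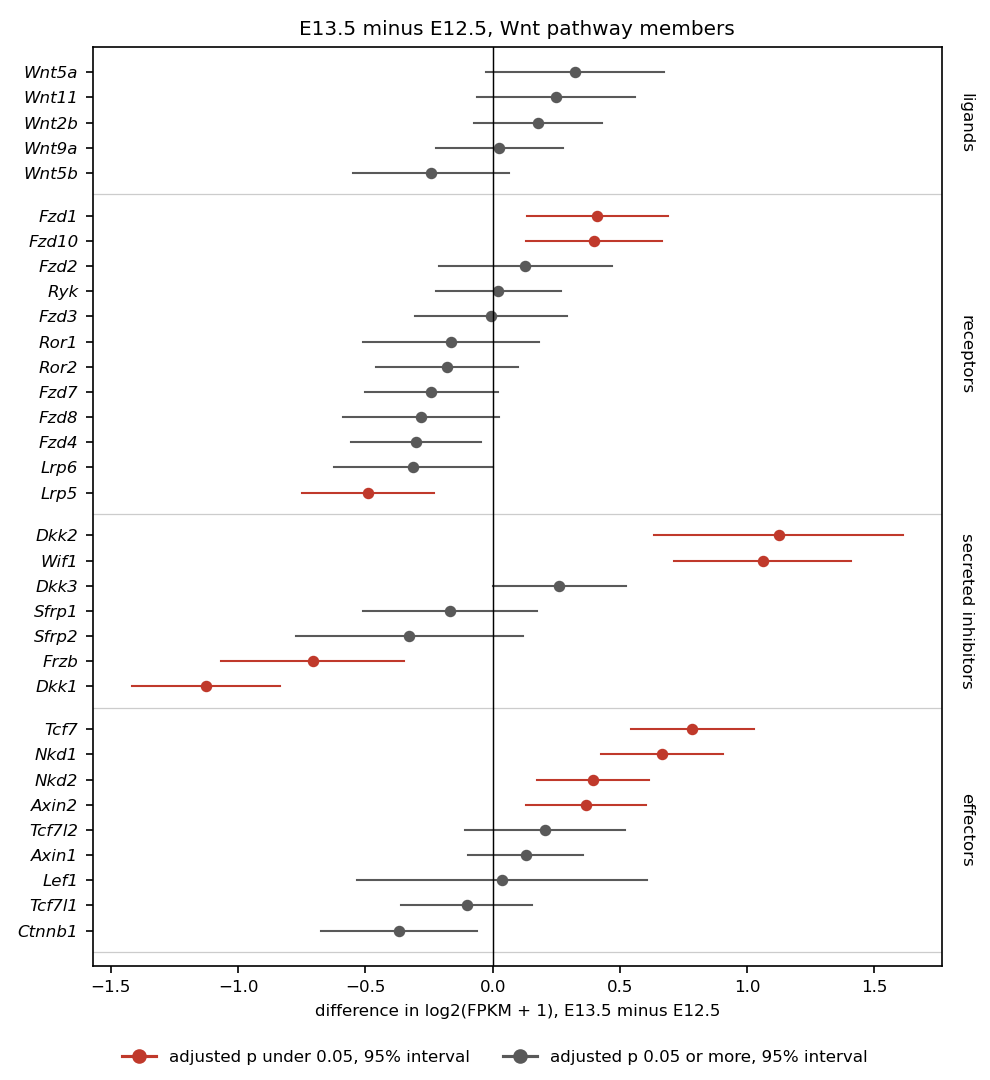
Difference between E13.5 and E12.5 on the log2(FPKM + 1) scale for the 33 members tested, by role, with 95% intervals; red points passed the threshold. Dkk2, Wif1 and Tcf7 are the highest, at 1.12, 1.06 and 0.78, and Dkk1 the lowest, at -1.13. Wif1 and Dkk1 passed the filter only through the age at which they were high.

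**Figure D4:**
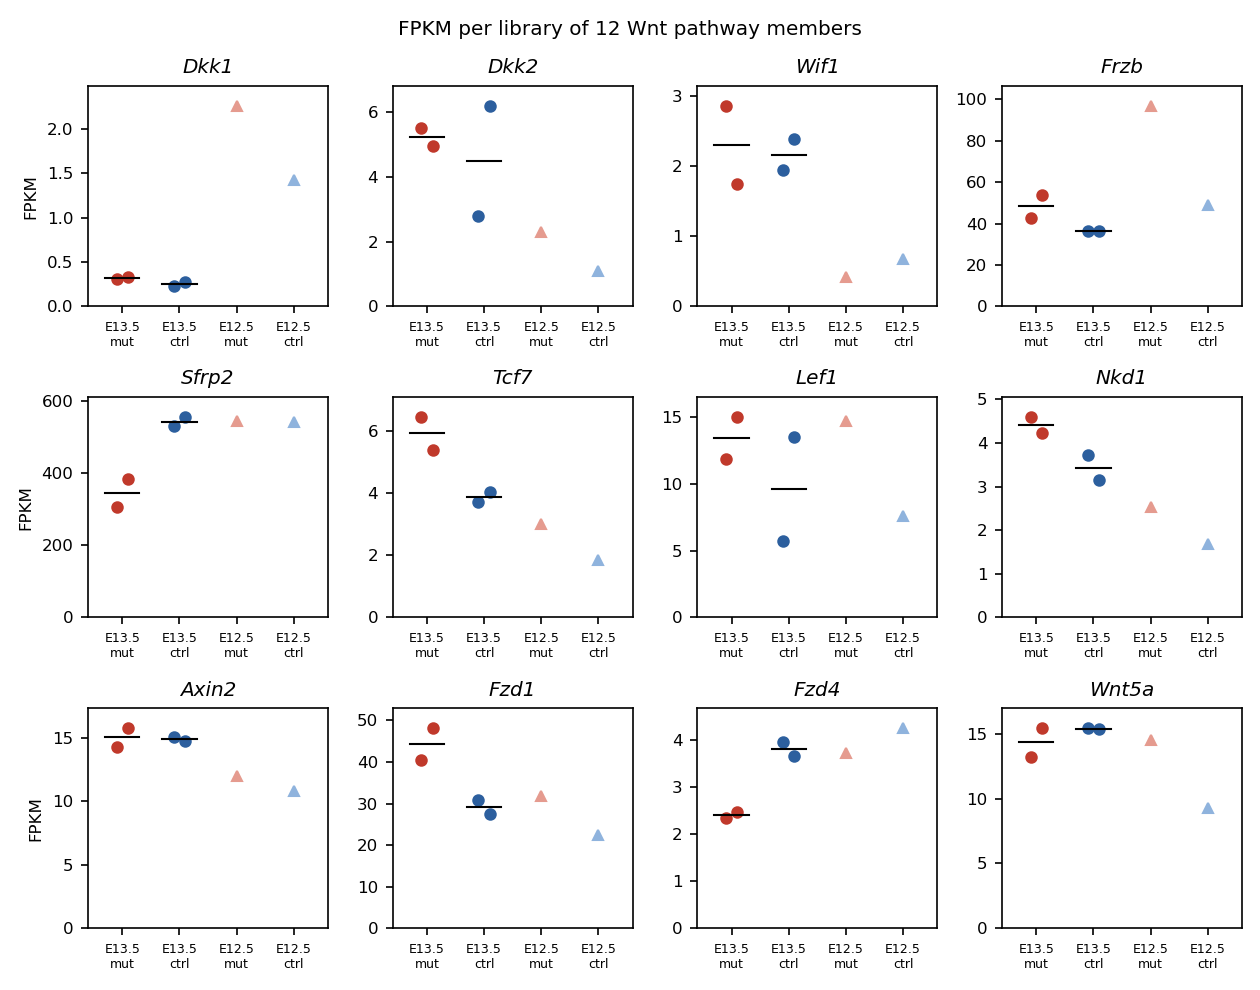
FPKM in each library for 12 members, 1 panel per gene, for the E13.5 mutants and controls and the E12.5 mutant and control; horizontal lines are the means of the E13.5 groups (n = 2). Sfrp2 is lower in both E13.5 mutants than in both E13.5 controls, with 544 FPKM in the E12.5 mutant and 542 FPKM in the E12.5 control. Dkk1 and Wif1 do not overlap between the ages, and each passed the filter only through the age at which it was high.

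Of 66 other Wnt pathway genes listed, 65 were found with an estimate in every library and 48 passed the filter. At E13.5, 1 of the 48 was higher in mutants and none was lower, against 0.852% and 0.435% of all genes. This was Lgr5, a receptor for R-spondins, which raise the number of Frizzled receptors at the surface. Lgr5 had 15.2 and 18.1 FPKM in the mutants, against 7.72 and 8.04 FPKM in the controls (log2 difference 0.99, SE 0.13, limma adjusted p = 0.00942). At E12.5 Lgr5 had 21.3 FPKM in the mutant and 12.3 FPKM in the control. Leaving out an E12.5 library could not change the E13.5 difference, since those libraries do not enter it. Leaving out an E13.5 library left 1 library in its group, and the difference was then 0.8708 to 1.1047. The call was lost with no filter (limma adjusted p = 0.412) and with the highest transcript alone (limma adjusted p = 0.0635).

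Of the same 48 genes, 2 were higher in mutants across both ages: Lgr5 (0.91, limma adjusted p = 0.00342) and Myc, a growth regulator and pathway target (0.66, limma adjusted p = 0.0176), against 1.08% of all genes. Myc lost its call in 4 of the 6 fits without 1 library. Those without an E12.5 library give the E13.5 difference itself, which was 0.57. At E12.5, Rspo3, an R-spondin ligand, was the only one of the 48 past the size rule, with 43.3 FPKM in the mutant and 21.1 FPKM in the control. With age, 8 were higher at E13.5 and 8 were lower, against 7.45% and 9.26% of all genes. The higher ones were the R-spondin Rspo1 and its receptor Lgr6, the surface genes Apcdd1, Gpc4 and Cthrc1, the nuclear cofactor Bcl9l, and the targets Sp5 and Myc. The lower ones were Rspo2, Lgr5, Sostdc1, Csnk1e, Dvl1, Pygo2, Tle4 and Daam1. Rspo1, Myc and Lgr6 passed in all 6 fits without 1 library, Apcdd1 and Daam1 in 5, Cthrc1 in 4, Bcl9l and Sostdc1 in 3, Gpc4, Csnk1e, Pygo2 and Sp5 in 2, and Rspo2, Lgr5, Dvl1 and Tle4 in 1. The Lgr5 call with age was also lost under the 3 other scalings (limma adjusted p = 0.0566 to 0.0818). Lgr6 and Sp5 passed the filter only through E13.5 libraries and Rspo2 only through E12.5 libraries. None passed for the interaction of genotype and age.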

How the data were processed

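RNA was measured in 6 libraries of sorted mouse palatal shelf cells, grouped by the genotype and age in their labels. Per the submitters' processing notes, the builds mm10 and mm9 and the aligners Bowtie 0.12.7 and TopHat 1.4.1 were used. The deposited tables hold FPKM per transcript, made by the authors with Cufflinks, per the file headers; neither its version nor whether strand was used in counting is given in the sources used here. The deposited transcript positions lie in the GRCm38 loci of the members, so that build is given. The deposited coverage signal and transcript lengths, made by the authors, were used only to estimate fragments per library. The tables give no read counts, so precision is given by how far replicate libraries differ.

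FPKM was summed over the transcripts of each symbol, and 25 symbols with a failed estimate were left out. Differences are on log2(FPKM + 1), with genes at 1 FPKM or more in at least 2 libraries, and understate the change of low genes. Tests were two-sided and moderated (limma 3.58.1 under R 4.3.3, with its intensity trend), Benjamini-Hochberg adjusted over 10799 genes, with a threshold of 0.05, and were tested on simulated data. A fit with 1 mean per group (2 residual degrees of freedom) gave the E13.5 genotype contrast and the interaction, and assumes that the lone E12.5 libraries vary like the others. An additive fit (3 residual degrees of freedom) gave genotype across both ages and age. At E12.5 alone, differences are described by size.

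The members and lists were chosen with earlier results of these data known. Per-library values are given for members past the threshold in any contrast. For the 3 of each role with the smallest p at E13.5, the E13.5 values are given per library. The 3 of each role with the highest mean FPKM are given per library or as a range. Further members are named for their spread, their E12.5 difference or their interaction, after their values were seen. Alternatives changed the pseudocount, the filter, the scaling, the trend, the use of all transcripts and the libraries, and put the title number in place of age as a block.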

Additional observations from a re-analysis of the deposited data

How the results depend on the processing

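At E13.5 the number of members past the threshold for genotype was 0 in the main setting and in every alternative with all libraries, and 0 to 1 with each library left out in turn. Lef1 turned from 0.54 to -0.0186 without E13.5 control replicate 1, and ranged from -0.0186 to 1.09 over the fits without 1 library. The interaction count was 0 in every alternative, and so was the E12.5 count. Across both ages the count was 1 and became 0 with a pseudocount of 5, with no filter, with a mean of at least 1 FPKM, with the title number as a block, under each of the 3 other scalings and with the highest transcript. It was 2 with a mean of at least 5 FPKM (Dkk3, limma adjusted p = 0.0279, and Lrp5, 0.0401), where Tcf7 is not tested, and 0 to 2 with each library left out. Without the trend it was 1, with Fzd1 (limma adjusted p = 0.0482) in place of Tcf7. For age the count of 11 became 0 with no filter, 4 under the filter at a mean of 5 FPKM, 4 in controls only and 4 to 11 with each library left out. The cause of these changes was not tested, other than the members that the stricter filter removes. The title number is shared between genotypes, and a fit with it as a replicate block in place of age was added after the data were seen, although the labels do not say what it stands for. E13.5 mutant replicate 1 is alone in its number and adds nothing there. In that block fit no member passed for genotype across both ages, 14 stood at an unadjusted p under 0.05 and 61 genes passed, against 156 without the block, and Tcf7 had 0.43 (limma adjusted p = 0.149). At E13.5 such a block leaves the same comparison as the fit without mutant replicate 1, where Fzd1 was 0.71. The mutant left there had high Xist and the controls did not. For age the block could not be fitted because each number occurs at 1 age. The 2 or 3 residual degrees of freedom limit what can be detected, and a member that did not pass is not shown to be unchanged.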
